A study of Drosophila melanogaster with 2 samples.

Results

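Glia wrap and insulate the nervous system of the fly embryo, and 10 genes of this tissue are described here: moody, loco, nrv2, Nrx-IV, gcm, gcm2, repo, pnt, Gs2 and wrapper. They are known for their roles in glia and were chosen by name with earlier results of these data known, out of 13945 protein-coding genes on the 6 main chromosome arms. For each gene, every place that the deposited lists give for the transcription factor Dati was collected in a window of the gene span and 5000 bp to each side. A place was counted where its summit lay in that window. The thresholded lists hold reproducible places, while the ranked lists hold places without such a threshold. Of the 282 places of the pooled ranked list in the windows, 275 were not in the thresholded list. A place of a ranked list alone is therefore not taken as bound by Dati. Of the 10 genes, 4 are grouped as barrier genes (moody, loco, nrv2, Nrx-IV), 4 as glial fate genes (gcm, gcm2, repo, pnt) and 2 as other glial genes (Gs2, wrapper).

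The study was a chromatin immunoprecipitation and sequencing (ChIP-seq) experiment on whole Drosophila melanogaster embryos aged 8 to 24 hours, the age in the source name. A separate age field disagrees with it, giving a time far beyond embryonic life, and was not used. All embryos came from a transgenic line that carries an insertion targeting dati and makes the Dati zinc finger protein fused to enhanced green fluorescent protein, which an antibody against GFP precipitated after the chromatin had been sonicated (size range 200 to 800, per the labels). The samples formed 1 group with 2 biological replicates, no second condition, and 1 control alignment shared by both replicates. The deposited lists hold positions and strengths of enrichment but no expression and no cell type, so in which cells of the embryo the fusion protein sat on a gene was not measured.

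In the fly, subperineurial glia close the blood-brain barrier with septate junctions, and a G protein pathway that starts at the receptor Moody organises these cells. Glial identity is set earlier: the transcription factors Gcm and Gcm2 switch neural precursors to the glial path and turn on repo, a homeodomain gene of lateral glia, while Pointed, an ETS factor, acts with them and in midline glia. Dati is a zinc finger protein expressed in the nervous system.

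The strongest places at the 10 genes were 7 summits in 5 of the genes' windows, all in the authors' list thresholded on the irreproducible discovery rate (IDR), which measures how well the rank of a place repeats. The ranked list of each single replicate also carries IDRs, so an IDR is not by itself a measure of agreement between the 2 replicates. The sequences of the 7 summits are shown because the counts of genes with a thresholded place rest on them. Each is the summit base with 50 bp to each side, read from the plus strand of build dm6 (RefSeq, Release 6), 5′ to 3′. Capitals mark unbroken runs of A or T of at least 6 bp, which most Dati summits in this series hold. They were chosen after the data were seen. The windows lie at chrX:2050232-2050332 (moody), chr3R:22624887-22624987 (loco), chr2L:6787170-6787270, chr2L:6788113-6788213 and chr2L:6787599-6787699 (nrv2, by falling signal), chr3R:23326436-23326536 (pnt) and chrX:11423343-11423443 (Gs2).
moody: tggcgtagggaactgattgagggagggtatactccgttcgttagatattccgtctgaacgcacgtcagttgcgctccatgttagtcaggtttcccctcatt
loco: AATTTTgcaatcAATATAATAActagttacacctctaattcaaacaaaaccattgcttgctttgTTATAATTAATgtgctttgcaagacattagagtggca
nrv2, highest: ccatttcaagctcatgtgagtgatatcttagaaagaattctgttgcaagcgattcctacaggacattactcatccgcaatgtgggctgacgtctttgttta
nrv2, second: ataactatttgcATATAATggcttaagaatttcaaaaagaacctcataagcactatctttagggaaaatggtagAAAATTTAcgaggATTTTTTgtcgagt
nrv2, lowest: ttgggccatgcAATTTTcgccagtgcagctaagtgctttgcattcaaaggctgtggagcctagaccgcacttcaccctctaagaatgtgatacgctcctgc
pnt: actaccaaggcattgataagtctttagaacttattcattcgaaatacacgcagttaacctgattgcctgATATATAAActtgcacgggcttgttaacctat
Gs2: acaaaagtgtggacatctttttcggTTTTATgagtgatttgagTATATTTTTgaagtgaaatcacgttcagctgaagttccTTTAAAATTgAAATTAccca

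The sequence at moody, which had the highest signal of the 7, was unlike most Dati summits in base composition. Over all 1892 thresholded summits on the 6 arms, the median GC content of such windows was 34.7% (from 22.8% at the 5th to 55.4% at the 95th percentile), against a median of 42.6% in windows 500 bp to either side. At moody it was 50.5%, higher than in 88.3% of the summits, and its sides were both at 43.6%. The summits of loco and of the second nrv2 place were AT-rich, both at 29.7%, below their own sides at 49.5% and 47.5% for loco and 44.6% and 37.6% for nrv2. The Gs2 summit held 31.7% GC and the pnt summit 36.6%, again below both of their sides. The highest nrv2 summit, at 41.6%, lay between its sides, and the lowest, at 51.5%, lay above them. The 3 nrv2 summits lie so close together that some of their sides overlap the window of a neighbouring nrv2 summit. For nrv2 the contrast is therefore partly between summits, not between a summit and its surroundings.

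Runs of A or T of at least 6 bp were present in 87.6% of the 1892 summit windows, where the median of the longest run was 9 bp. They were present in 5 of the 7 windows at the glial genes. The share in windows away from the summits was not counted, so such runs are not shown to be particular to Dati summits. The moody window held no run longer than 5 bp and the highest nrv2 window none longer than 4 bp, so the gene with the strongest signal was among the exceptions. The longest run at loco was 11 bp and at Gs2 9 bp, and the Gs2 window held 4 separate runs.

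**Figure D1:**
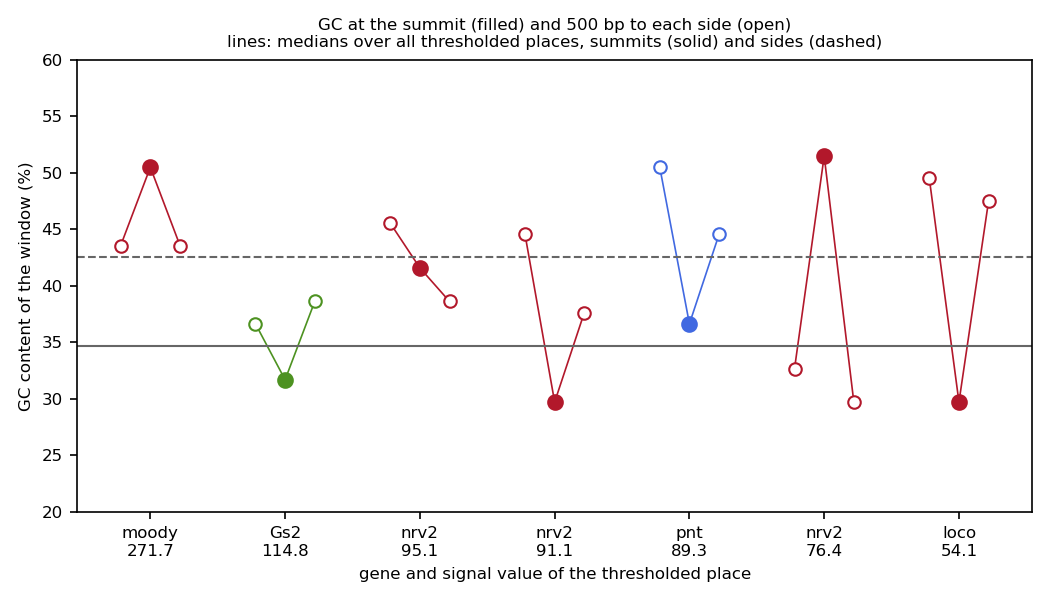
GC content in percent of the window (50 bp to each side) at each of the 7 thresholded summits (filled) and 500 bp to its left and right (open), in order of signal; the lines are medians over all 1892 summits (solid, 34.7%) and their sides (dashed, 42.6%). The moody and lowest nrv2 summits stood above their sides, at 50.5% and 51.5%, while Gs2, pnt, loco and the second nrv2 summit stood below theirs. Some sides of the nrv2 summits overlap the window of a neighbouring nrv2 summit.

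Of 7 motifs searched on both strands of the 7 windows, 6 had no match. These were the motifs TATCGATA (DREF) and CGATA (BEAF, which lies inside the DREF motif), the GAGA factor motif GAGAG, core promoter motif 1 (GGTCACAC), a Gcm motif (ATGCGGG) and an ETS motif (CCGGAA). Over all 1892 thresholded windows the shares with a match were 1.16%, 13.5%, 10.4%, 0.899%, 0.370% and 3.59%. The E-box CANNTG matched in the windows of moody, Gs2 and the highest nrv2 place, and in 37.2% of all windows. The letters of the Gcm and ETS motifs, which the fate factors of the same pathway are known to bind, were thus not in these windows. With matches in only 0.370% and 3.59% of all windows, their absence from 7 windows carries little information. Shares away from the summits were not counted.

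Of the glial genes, 5 of 10 had at least 1 thresholded place in their window: moody, loco, nrv2, pnt and Gs2. That is 50% with an exact (Clopper-Pearson) 95% interval of 18.7 to 81.3%, which covers counting error only and does not allow for how the genes were chosen, beside 25.4% of all 13945 protein-coding genes. The background share lies inside the interval. Longer genes have longer windows: among all genes the share was 16.1% for spans up to 1179 bp, 23.2% for spans up to 2166 bp, 26.2% up to 4998 bp and 36.1% for longer spans, 4 classes of nearly equal size. All 5 genes with a place are in the class of the longest spans, as is Nrx-IV, while repo, gcm, gcm2 and wrapper are in the class next to it.

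Barrier genes and fate genes differed in count, with 3 of 4 barrier genes (moody, loco, nrv2) and 1 of 4 fate genes (pnt) holding a thresholded place, beside the same 25.4% of all genes. The exact 95% intervals, 19.4 to 99.4% and 0.631 to 80.6%, overlap over most of their range, so 4 genes against 4 do not set the groups apart. The barrier windows held 5 thresholded places, or 5.90 per 100 kb, and the fate windows 1, or 0.946 per 100 kb, beside 1.41 per 100 kb over the 6 arms and 1.98 when every gene window is counted. Of the 5 barrier places, 3 belong to a single stretch beside nrv2. Among the other glial genes Gs2 had a place and wrapper had none.

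**Figure D2:**
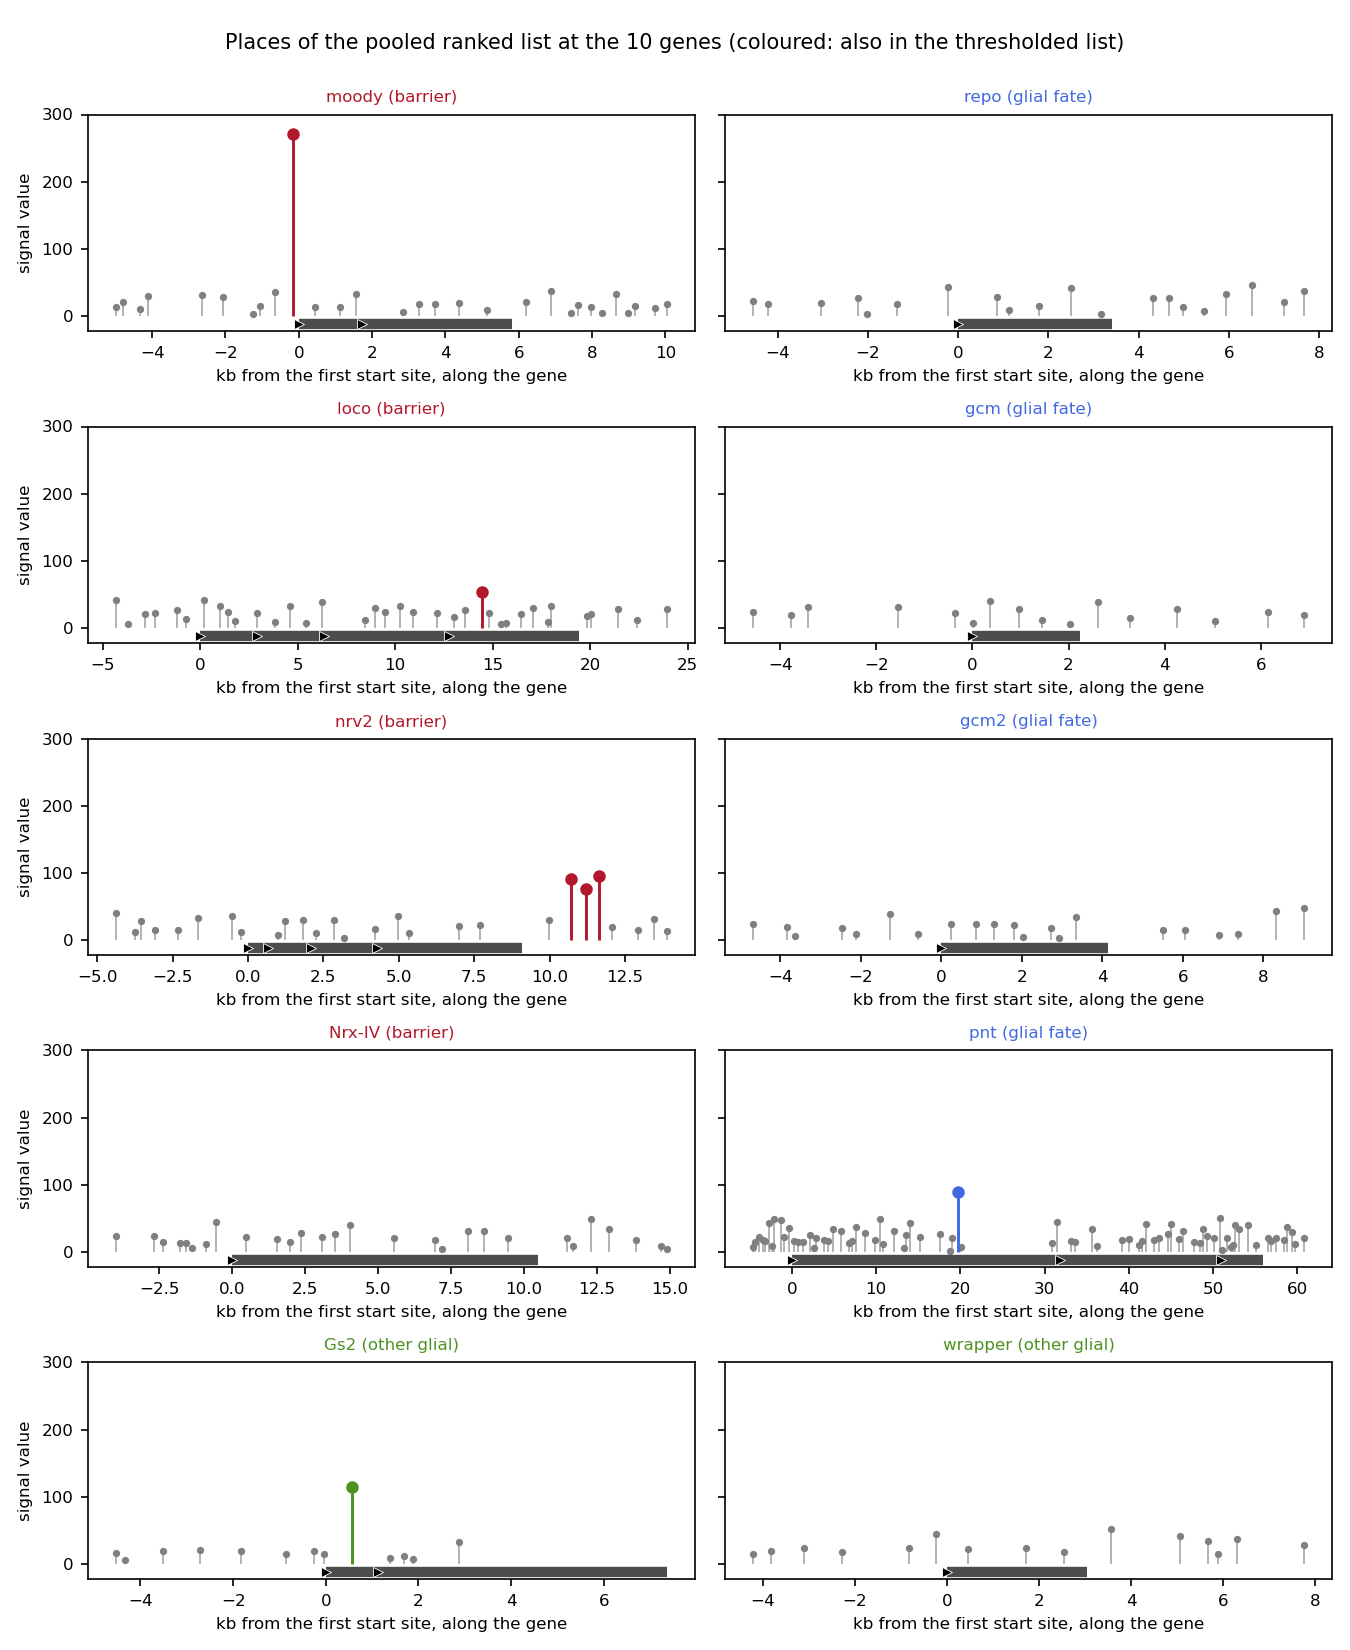
Signal value (linear axis) of every place of the pooled ranked list in the 10 windows, against distance in kb from the first start site along each gene; the bar is the gene span, triangles are annotated start sites, and coloured points are also in the thresholded list. The moody place at 271.7 stood at the start of the gene, the 3 nrv2 places beyond the end of the gene, and the 275 places that the thresholded list does not hold were all at 52.3 or lower.

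The receptor gene moody had the strongest enrichment of the 10 genes. Its place (X, 2050222 to 2050346, 125 bp wide) had a signal of 271.7, rank 74 of 1915 in the thresholded list and rank 79 of 156658 in the pooled ranked list, with an IDR of 1.72e-05. Signal is the authors' own value, on a scale not given in the sources used here, and ranks are by falling signal. The summit, at 2050282, lay 162 bp upstream of the distal of moody's 2 start sites (2050120, minus strand). It also lay in an intron of CG4313, a gene on the opposite strand that spans the place, and moody's start site was the nearest of any protein-coding gene.

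Both replicates showed the moody place in their own thresholded lists. Replicate 1 had a signal of 156.0 (rank 71 of 107484) and replicate 2 of 114.9 (rank 108 of 122195), with summits at 2050284 and 2050275. Nothing else in the window came close: the next signal was 37.2 in the pooled list, 22.7 in replicate 1 and 18.6 in replicate 2. The pooled value was 7.30 times the next and higher than the best value of 98.2% of the 13623 genes with a pooled place. On that scale of best signals, moody stood next below CG5757 (277.0, a place shared with CG34386 and CG5098) and next above CG1142 (271.3).

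Gs2, which encodes a glutamine synthetase that recycles glutamate in glia, carried the second strongest place. It lay in an intron (X, 11423261 to 11423524, summit 11423393), 561 bp past the first start site at 11422832 and upstream of the other at 11423957. The signal was 114.8, rank 480 in the thresholded and 503 in the pooled ranked list. Replicate 1 had 69.0 and kept the place in its own thresholded list, while replicate 2 had 48.1 with an IDR of 0.116 and did not. The Gs2 place thus stood near the top of both ranked lists, at 405 and 648, but was in the own thresholded list of replicate 1 alone. The next signal in the window was 33.1, and no other protein-coding gene starts there. In the scale of best signals the neighbours were sgll above (114.8, shared with CG2993, CG31473 and CG34384) and Lsd-2 below (114.8).

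Gs2 and moody were also the 2 of the 10 genes with a thresholded place within 1000 bp of a start site, a share of 20% (exact 95% interval 2.52 to 55.6%) beside 9.52% of all genes. That share was too close to the background to set the 10 genes apart.

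The other barrier genes with places carried them in other positions. The gene nrv2 encodes a beta subunit of the sodium-potassium ATPase that is a part of septate junctions, and 3 places lay in its window on 2L, all past the end of the gene. From the strongest down they were at 6787088 to 6787351 (signal 95.1, rank 684 of the thresholded list), 6788031 to 6788294 (91.1, rank 728) and 6787517 to 6787780 (76.4, rank 1004). Their summits were 2550, 1607 and 2121 bp past the end of nrv2. They were also 359, 1302 and 788 bp upstream of nrv1, which encodes another beta subunit of the same pump and whose start site was the nearest in each case.

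At the nrv1 and nrv2 stretch the replicates had signals of similar size. Replicate 1 gave 44.0, 48.0 and 40.0 and replicate 2 gave 56.9, 41.6 and 41.2 for the 3 places in the same order. The places at 91.1 and 76.4 were in both own thresholded lists, and the one at 95.1 was in that of replicate 2 alone. Inside the nrv2 span itself the highest pooled signal was 35.7.

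The gene loco encodes a regulator of G protein signalling that acts downstream of Moody, and its place was the weakest of the 7. It lay in an intron (3R, 22624805 to 22625068), 1697 bp past the start site at 22626634, with a signal of 54.1 at rank 1745 of 1915. The signal was 39.4 in replicate 1 (IDR 0.111) and 22.8 in replicate 2 (IDR 0.608). Neither replicate had it in its own list, and the authors' conservative list, thresholded on the pairing of both replicates, did not hold it. Weaker places of the pooled ranked list, which held 1.15 places per kb over the arms, stood near all 4 of loco's start sites. The highest of them had signals of 42.3, at 187 bp past the first site, and 39.6, at 120 bp upstream of the site at 22633018, with IDRs of 0.106 and 0.163. The others had 22.7 and 17.2, with IDRs of 0.605 and 0.812. None of these places was in the thresholded list.

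Nrx-IV, which encodes the neurexin that spans the membrane at septate junctions, had no thresholded place. Its best place (3L, 12158662 to 12158925) had a signal of 49.2 and an IDR of 0.0194, with 27.1 in replicate 1 and 24.1 in replicate 2, and lay 1804 bp past the end of the gene in an intron of CG9760. The next, 45.0 with an IDR of 0.0304, was 554 bp upstream of Nrx-IV but 132 bp from the start site of eIF3l, a translation initiation factor gene. Within Nrx-IV the highest signal was 40.7, in an intron.

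**Figure D3:**
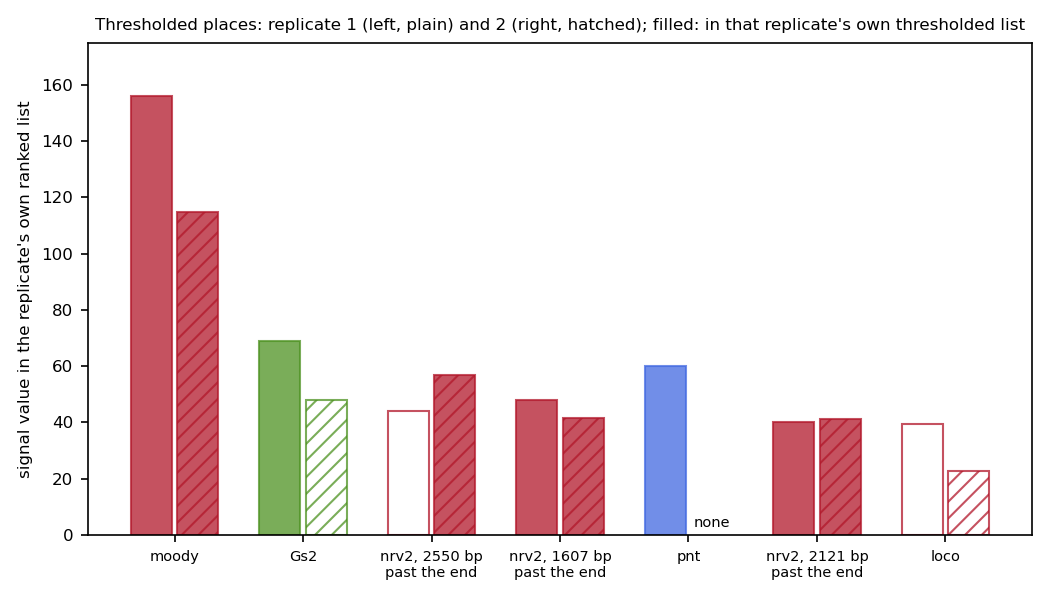
Signal value in the ranked list of replicate 1 (left bar) and replicate 2 (right bar, hatched) at the 7 thresholded places, in order of pooled signal; filled bars are in the replicate's own thresholded list and bars start at 0. Both replicates were highest at moody, with 156.0 and 114.9, and replicate 2 had no overlapping place at pnt.

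Among the fate genes only pnt, the ETS factor, had a thresholded place. It lay deep in an intron (3R, 23326354 to 23326617), 12171 bp upstream of the second of pnt's 3 start sites (23314315), with a signal of 89.3 at rank 751 of the thresholded list. Replicate 1 had it at 60.1 and in its own list. Replicate 2 had no overlapping place in its ranked list, and its highest signal at pnt was 32.1 at another position, with a summit at 23338492. Of the 7 places it was the one that replicate 2's ranked list did not overlap, although the conservative list held it. As the span of pnt is 55937 bp, its window is by far the longest of the 10 and held 77 of the 282 pooled places.

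Further places at pnt stood just past the threshold, and they included both of its downstream promoters. With an IDR above 0.01 and at most 0.05 there were 6, with signals of 50.8, 49.3, 47.6, 44.8, 42.6 and 41.2. The highest was 157 bp upstream of the start site at 23295238, with 23.7 in replicate 1 and 25.0 in replicate 2. The place at 44.8 was 316 bp upstream of the start site at 23314315, with 22.6 in replicate 1 and no overlapping place in replicate 2. The place at 47.6 was 1322 bp upstream of the first start site, but nearer to that of PolE1.

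The genes gcm, gcm2 and repo had no thresholded place, and their best signals were 40.0, 48.6 and 46.5. For gcm this was 372 bp past its start site (2L, 9581241 to 9581504, IDR 0.168), with 19.5 in replicate 1 and 19.0 in replicate 2. It was the single one of the 10 genes below the all-gene median of 42.4. For gcm2 the best place lay in a coding exon of GlcAT-S, 4876 bp past the end of gcm2, with an IDR of 0.0915, 11.4 in replicate 1 and no overlapping place in replicate 2. The next, 43.1 with an IDR of 0.0315, was 36 bp from the start site of GlcAT-S, a glucuronyltransferase gene, with 21.2 in replicate 1 and none in replicate 2.

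At repo the best place was at a neighbour's promoter, 26 bp from the start site of 14-3-3epsilon and 3111 bp past the end of repo (3R, 18242581 to 18242844). Its IDR was 0.0405, and the signal was 17.8 in replicate 1 and 28.4 in replicate 2. The place at repo's own promoter, 214 bp upstream, had a signal of 44.1 with an IDR of 0.277. The window at the neighbour's promoter held the CGATA and GGTCACAC motifs, which none of the 7 thresholded windows did. The best places of Nrx-IV, gcm and gcm2 were searched in the same way and matched none of the motifs.

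The gene wrapper encodes an immunoglobulin protein with which midline glia enwrap axons. It had no thresholded place either. Its best place (2R, 22383060 to 22383323) had a signal of 52.3 and an IDR of 0.0428, with 18.1 in replicate 1 and 31.3 in replicate 2, and was 58 bp from the start site of CG13506. The next was at its own promoter, 237 bp upstream, with 45.1, an IDR of 0.0322, 20.7 in replicate 1 and 25.2 in replicate 2.

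When the limit on the IDR was loosened to 0.05 in the pooled ranked list, 9 of the 10 genes had a place, all but gcm, and the places came to 19. The share of 90% (exact 95% interval 55.5 to 99.7%) compares with 41.6% of all genes, and with 42.6% and 55.0% in the span classes that hold the 10 genes. The limit was chosen after the data were seen, so the count is a description. At nrv2, Nrx-IV, repo and gcm2 every such place was nearest to another gene's start site. The count by nearest start site at this limit was not made over all genes. Of the 12 places added, 6 were at pnt, 2 each at Nrx-IV and wrapper, and 1 each at repo and gcm2. All 12 had signals from 41.2 to 52.3. None was in the own thresholded list of either replicate.

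**Figure D4:**
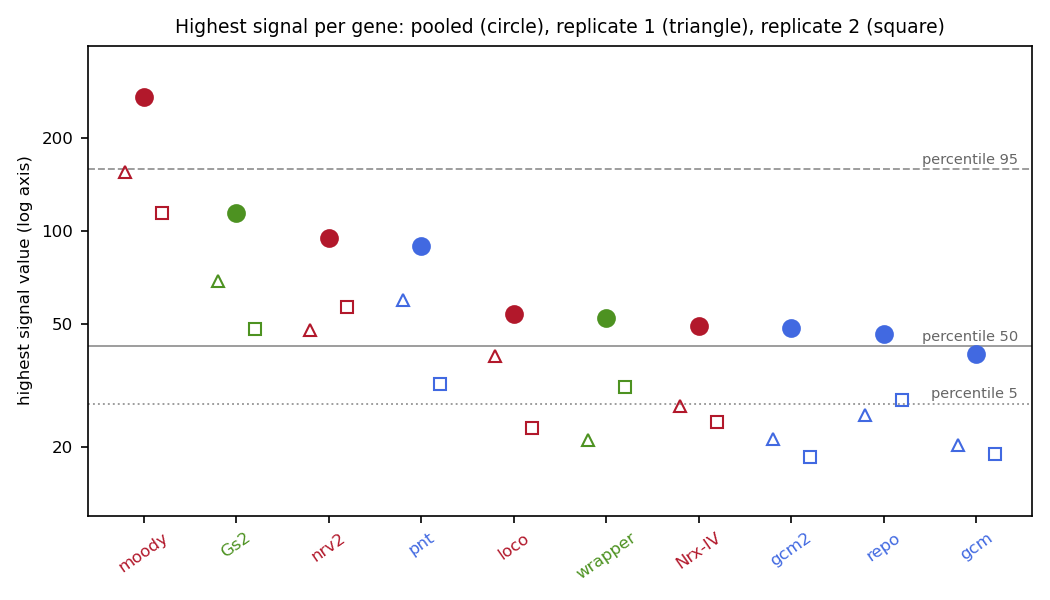
Highest signal value (log axis) in each gene's window in the pooled ranked list (circle), replicate 1 (triangle) and replicate 2 (square); the lines are percentiles 5, 50 and 95 of the pooled value over 13623 genes, and pooled and replicate values are on lists of their own. In the pooled list moody, at 271.7, was above the 95th percentile of 158.7, and gcm, at 40.0, was below the median of 42.4.

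Over the barrier genes the median of the best pooled signal was 74.6 and over the fate genes 47.6, beside 42.4 over all genes. Among all genes the median was 47.4 in the class of the longest spans, which holds the 4 barrier genes and pnt, and 42.7 in the class of gcm, gcm2 and repo. The ranges overlapped: the barrier genes ran from 49.2 to 271.7 and the fate genes from 40.0 to 89.3. The difference also rests on places nearest to other genes. Among places nearest to the gene's own start site, the best signals were 271.7 at moody, 54.1 at loco, 35.7 at nrv2 and 23.1 at Nrx-IV. They were 89.3 at pnt, 44.1 at repo, 40.0 at gcm and 38.5 at gcm2, so nrv2 and Nrx-IV then lay below every fate gene. Without regard to strength, the windows of the 10 genes held 282 pooled places, 1.28 per kb, from 0.749 per kb at Gs2 to 1.83 at moody, beside 1.15 per kb over the arms. Of these, 155 overlapped a place in both replicates, or 55.0% beside 45.0% over the arms, with 61.7% at the barrier genes and 50% at the fate genes. By location, 105 were in introns, 73 in coding exons, 69 at promoters (within 500 bp of a start site), 26 between genes and the other 9 in untranslated regions or other exons.

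In the replicates taken singly, replicate 1's own thresholded list had places at 4 of the 10 genes (moody, nrv2, pnt and Gs2), beside 18.1% of all genes. Replicate 2's own list had them at 2 (moody and nrv2), beside 14.0%. Both lists thus held moody and nrv2, and neither held loco, Nrx-IV, gcm, gcm2, repo or wrapper. The ratio of the signal of replicate 2 to that of replicate 1 was 0.737 at moody, 0.579 at loco, 0.697 at Gs2 and 1.29, 0.865 and 1.03 at the nrv2 places. All 6 lay within the 5th to 95th percentile, 0.455 to 1.75, of the 1852 thresholded places with both values, whose median was 0.897.

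By the nearest protein-coding start site, 4 of the 10 genes had a place (moody, loco, pnt and Gs2), a share of 40% (exact 95% interval 12.2 to 73.8%) beside 9.95% of all genes. By this rule the share was 20.6% in the class of the longest spans, which holds all 4 of these genes, and 8.95% in the next. The interval lies above the share of all genes but includes that of genes of like span. It covers counting error only and does not allow for how the genes were chosen, so the share is a description. The nrv2 places drop out under this rule because they are nearest to nrv1.

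A wider list of 33 genes of the barrier and its septate junctions, which includes the 4 barrier genes, had 14 with a thresholded place (42.4%, exact 95% interval 25.5 to 60.8%), beside the 25.4% of all genes. The lower bound is close to the background, and the genes are long, with a median span of 8381 bp against 2166 bp over all genes. Outside the 4, the share was 11 of 29. At their own start sites lay the places of pck (59.5, 20 bp away), a claudin of septate junctions, scrib (69.6, 16 bp away), a polarity scaffold, Gli (80.6, 396 bp away), which encodes gliotactin, and dlg1 (95.1, 432 bp away), another polarity scaffold. A second place in scrib had a signal of 106.1. Atpalpha, the alpha subunit of the pump, and Pka-C1, a catalytic subunit of protein kinase A, each had 1 place inside the gene, with 67.7 and 54.7.

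For vari, Tsf2, axo and Galphao, the places were nearer to another gene's start site. The places of vari, 120.0 and 71.5, were nearest to Pomp and CG9328, and that of Tsf2, 69.1, to nst. The 3 places in the window of axo, 79.7, 73.2 and 55.7, were nearest to CG18418 and Src64B. The place of Galphao, a G protein subunit of the Moody pathway, had 59.8 and was nearest to CG11777. The second place of Gli, 63.0, was nearest to ND-B17. The gene nrv1, whose own start site is the nearest to them, shares its 3 places with nrv2.

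A wider list of 32 genes, called the wider glial list, took in all 10 genes. It also held EGF and FGF signalling genes and neural transcription factors that are not particular to glia, so its share is not one of glial genes alone. It had 15 genes with a thresholded place (46.9%, exact 95% interval 29.1 to 65.3%), and 10 of 22 outside the 10. The share was 25.4% of all genes and 36.1% in the class of the longest spans. The median span was 8726 bp. Among them aos, a secreted inhibitor of the EGF receptor, had 195.6 in an intron, ths, an FGF ligand, had 119.2 in an intron, and vn and spi, EGF receptor ligands, had 61.8 and 59.1. The FGF receptor gene htl had 2 overlapping places with signals of 53.5 and 13.2. The midline signal sli had 90.1, the receptor Tre1 67.9 and the transcription factor pros 87.5 and 62.0. The places of spi, bdl (102.4) and CG6126 (119.9) were nearest to the start sites of Hakai, Atet and mtSSB. That of vn and the stronger one of pros lay inside those genes but nearest to mad2 and mRpL40.

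Counted by nearest start site, 9 genes of the wider barrier list (27.3%) and 10 of the wider glial list (31.2%) had a place, beside 9.95% of all genes and 20.6% of those of the longest spans. Within 1000 bp of a start site, where 9.52% of all genes had a place, there were 6 (moody, nrv1, pck, dlg1, scrib and Gli) and 3 (Gs2, htl and moody). The last, 3 of 32 or 9.38%, is near the share of all genes. In each of the wider lists moody had the highest signal.

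**Figure D5:**
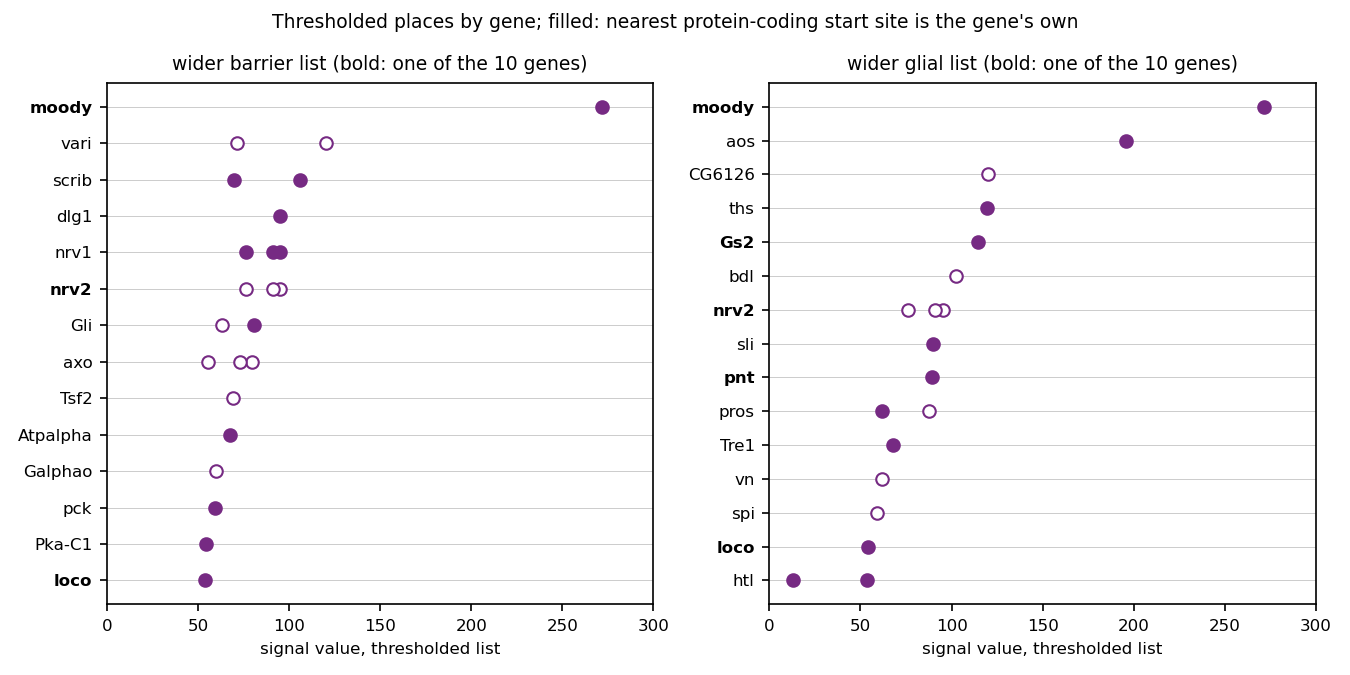
Signal value (linear axis) of each thresholded place at the genes of the wider barrier list (left, 14 of 33 genes) and the wider glial list (right, 15 of 32 genes); filled points have the gene's own start site as the nearest protein-coding one, open points another gene's. In both panels moody is highest at 271.7, and the nrv2 points are open because nrv1 is nearer.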

How the data were processed

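The authors deposited peak lists of 2 ChIP-seq replicates on build dm6, per the labels. Neither the aligner nor the peak caller, nor any version, is given in the sources used here. Each place has the authors' signal value, made against the control on a scale that is not given, a deposited score (the IDR on a scaled negative log2, at most 1000) and, in ranked lists, the deposited −log10 of the IDR. Summit positions were taken from the deposited offset column. The lists used were the thresholded list of both replicates (1915 places, lowest score 830, an IDR of 0.01), the conservative list (1675), the pooled (156658), paired (151702) and replicate ranked lists (107484 and 122195) and each replicate's own thresholded list (1208 and 877). The 32 further columns of the ranked lists were not used. Lists hold no read counts, so depth is unknown and intervals cover counting error only.

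Coordinates count from 1. Genes came from Ensembl release 115 and sequence from RefSeq Release 6. Replicate values are those of the overlapping place of highest signal in the replicate's ranked list. No test was run: counts of genes with a place are read against the share of all protein-coding genes under the same rule. The gene assignment was tested on simulated data, where 200 of 200 planted summits were assigned to their genes. All 10 genes, wider list genes with a thresholded place, nearest start-site genes and the neighbours in signal of the 2 strongest genes were named by rule. Members, lists and motifs were chosen with earlier results of these data known. Alternatives were other windows, start-site rules, lists, each replicate alone and an IDR limit of 0.05. Tools were Python 3.11.15, pandas 2.3.3, numpy 2.4.6, scipy 1.17.1 and matplotlib 3.10.9.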

Additional observations from a re-analysis of the deposited data

How the results depend on the processing

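Each setting also moved the share of all protein-coding genes with a place, 25.4% in the report, so the counts are given with it. With the gene span alone (6.52% of all genes) the 5 genes became 3, the 7 places 3, the 3 barrier genes 1 and the 14 wider barrier genes 7. With 1000 bp around the span (13.9%) the places became 4, and with 10000 bp (37.0%) the 1 fate gene became 3. Within 1000 bp of a start site (9.52%) there were 2 of the 10 genes, 2 places, 1 barrier gene, 0 fate genes, 6 wider barrier genes and 3 of the 15 wider glial genes. By the nearest start site (9.95%) there were 4 places and 9 wider barrier genes, and for signals at or above the list's median of 78.6 (15.4%) 8 wider barrier genes. At an IDR of at most 0.05 (41.6%), chosen after seeing the data, there were 9 genes, 19 places and 3 fate genes. In single replicates (18.1% and 14.0% of all genes) the genes were 2 to 4, the places 4 to 5, the fate genes 0 to 1, the wider barrier genes 6 to 9 and the wider glial genes 9 to 13. Smaller windows and shorter lists hold fewer places by construction. All other counts under these settings, any overlap with the window (25.7%) and the conservative list (23.0%) stayed within 1.5 times. Of 70 alternative values of the highest signal per gene, 50 stayed within 1 SD of the replicates' values at the gene's best place and 20, over 8 genes, did not. For gcm2 and pnt, where a replicate had no value, any change was counted. Of the 70 values, 23 were lower than the value in the report, 4 were higher and the rest were equal to it. The SD is of 2 replicate values on lists of their own and was applied to pooled values, so it is a rough yardstick. No paired analysis was possible because there was 1 group. The lists hold no read counts and the scale of the signal is unknown, so the intervals on counts cover counting error only and the spread between 2 replicates is the one other error available.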

Other observations

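Thresholded places farther out, from 5000 to 10000 bp from the gene, were found at 3 fate genes. At gcm the place had a signal of 98.7 and lay 9516 bp past the end of the gene, 289 bp from the start site of brwl. At gcm2 it had 67.1, lay 9966 bp upstream and was nearest to CG4382. At pnt it had 112.0, above the 89.3 of the place inside the gene, and lay 9116 bp past the end of pnt, 86 bp from the start site of Cdc16. With these, 3 of 4 fate genes had a place, as did 3 of 4 barrier genes, and 37.0% of all genes had one in a window of that size.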
